A study of Mus musculus with 547 samples.

Results

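RNA of 31 complement genes was followed in developing mouse liver cells. They were selected by gene symbol from a list of complement components, inhibitors and receptors, and all 31 were present among the 40824 genes of both the bulk and the single-cell count tables. By role they comprised 6 genes that start the classical pathway, 6 that start the lectin pathway, 4 for C3 and the alternative pathway, 7 of the terminal pathway, 3 soluble inhibitors, 3 membrane-bound inhibitors and 2 receptors. All are annotated as protein coding.

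The series dealt with how hepatoblasts, the common progenitors of the fetal liver epithelium, turn into hepatocytes or into cholangiocytes, the epithelium of bile ducts. Bulk libraries were prepared from about 200000 cells carrying DLK, a surface protein of hepatoblasts, with 2 libraries on each of 9 embryonic days from E10.5 to E18.5. Single cells were sorted through a DLK+ gate (P1 gate) or an EpCAM+ gate, EpCAM being an epithelial surface protein, and were picked by hand. Each cell carries a putative type from the submitters, either hepatoblast/hepatocyte or cholangiocyte. The EpCAM+ cholangiocytes of embryos numbered 2, 3, 10, 17, 36 and 34 at E11.5, E12.5, E13.5, E14.5, E15.5 and E17.5. The EpCAM+ hepatoblasts/hepatocytes numbered 32, 17, 16, 26, 2 and 1 on the same days. The DLK+ hepatoblasts/hepatocytes numbered 54 at E10.5 and 36, 21, 39, 27, 39 and 35 on those days. A further 82 cells came from major liver lobes of E12.5 embryos kept for 2 days in medium with serum and 50 ng/ml EGF. These explants received 0.5 µM TPPB, an agonist of protein kinase C, 0.5 µM TPPB with 10 µM U0126, which blocks the kinases MEK1 and MEK2, 10 µM U0126 alone, or the DMSO carrier (Control). Their EpCAM+ cholangiocytes numbered 22 with TPPB, 9 with TPPB+U0126, 13 with U0126 and 22 in Control. Strain and genotype are not given in the sources used here, and the type of each cell is the submitters' own call, not a result of a lineage trace.

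Complement is a group of blood proteins that coat microbes and damaged cells and can pierce membranes. In the classical pathway C1q recognises antibody, and in the lectin pathway mannose-binding lectins, collectins and ficolins recognise sugars. Proteases bound to these molecules, C1r and C1s or the MASPs, activate C4 and C2, and the resulting enzyme cleaves C3. The alternative pathway reaches C3 through factor B, factor D and properdin. Cleaved C5 then gathers C6, C7, C8 and C9 into a pore. Hepatocytes are the main source of most of these proteins in blood, whereas C1q comes mainly from macrophages and other myeloid cells, properdin mainly from leukocytes, and factor D mainly from fat cells.

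Bulk libraries held 14385574 to 22791119 reads and single cells 763480 to 2111839, with a median of 1098050. Reads of the cells of a group that share a set number were summed, with at least 2 cells a sum, and these sums served as replicates. Embryo sums held 2338674 to 28130886 reads and explant sums 3508461 to 13737444. The labels do not say whether libraries of a stage, or cells with different set numbers, came from separate litters, so the p-values measure only the spread between these samples. Levels are read counts scaled to a common library size after normalisation (CPM, with gene lengths not divided out) and changes are log2 fold changes with their standard error. A gene was called when its Benjamini-Hochberg adjusted p over all genes tested, from edgeR's quasi-likelihood test, was below 0.05. Summed CPM of 9 hepatocyte markers was 399387.7 and 463700.5 in bulk at E18.5 and 15605.6 and 19420.4 at E10.5. Summed CPM of 8 cholangiocyte markers was 1746.3 to 10914.2 in cholangiocytes of E14.5 to E17.5. In DLK+ cells of those days it was 38.5 to 118.7. The 8 include Epcam, the gene of the EpCAM+ gate. The genes behind the submitters' type are not given, so these values are no independent check of the labels. In explant cells annotated as cholangiocytes the TPPB sums were no lower than those of embryo cholangiocytes, with 11859.5 and 12880.5 CPM. In 5 of the 7 sums of the other treatments the cholangiocyte markers came to 477.7 to 667.7 CPM, below every embryo cholangiocyte sum of these days, and in the other two to 3758.7 and 9353.8. Hepatocyte markers came to 64277.6 to 199643.4 CPM in these 7 sums and to 384.7 and 1830.8 with TPPB. Embryo cholangiocyte sums of E14.5 lay within the range of the 7, as given below. In 5 of the 7 it was thus the low cholangiocyte markers that went against the label cholangiocyte. In hepatocyte markers the TPPB sums lay below the embryo cholangiocyte sums of both E14.5 and E17.5. In bulk samples, fewer cells of a type and less RNA per cell cannot be told apart.

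The promoters printed here belong to 5 members on which the results turn. They are those of C3, the most abundant member, of C9, the one member called higher in cholangiocytes over E14.5 to E17.5 in the main test, of Hc, the mouse gene for C5, and of the neighbours C8a and C8b, whose 2 genes lie 11130 bases apart on chromosome 4 on opposite strands and of which only C8b was called lower in cholangiocytes. Each is the RefSeq sequence (GRCm38.p6) before the transcript start, read along the gene's strand, with motif letters in capitals. Those of C9 and Hc are shorter because 19 and 26 bases nearest the start are transcribed in another annotated transcript and were left out. C3 lies on the minus strand with its promoter at chr17:57228137-57228386, Hc on the minus strand at chr2:35061439-35061662, and C8a on the minus strand at chr4:104876399-104876648. C9 lies on the plus strand at chr15:6445096-6445326 and C8b on the plus strand at chr4:104766067-104766316.
C3: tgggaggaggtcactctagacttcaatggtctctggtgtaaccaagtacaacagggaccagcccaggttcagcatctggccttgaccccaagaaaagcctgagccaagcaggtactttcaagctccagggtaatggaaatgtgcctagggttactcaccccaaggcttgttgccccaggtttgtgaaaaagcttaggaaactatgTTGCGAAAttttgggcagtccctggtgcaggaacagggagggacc
C9: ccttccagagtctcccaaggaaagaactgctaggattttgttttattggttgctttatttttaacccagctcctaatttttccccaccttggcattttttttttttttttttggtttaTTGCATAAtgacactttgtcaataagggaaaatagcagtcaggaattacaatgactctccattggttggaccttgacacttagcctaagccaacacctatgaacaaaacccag
Hc: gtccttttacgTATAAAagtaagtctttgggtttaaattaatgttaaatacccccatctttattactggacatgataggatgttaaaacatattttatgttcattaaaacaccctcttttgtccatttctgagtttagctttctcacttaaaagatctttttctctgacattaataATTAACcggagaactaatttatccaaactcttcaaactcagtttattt
C8a: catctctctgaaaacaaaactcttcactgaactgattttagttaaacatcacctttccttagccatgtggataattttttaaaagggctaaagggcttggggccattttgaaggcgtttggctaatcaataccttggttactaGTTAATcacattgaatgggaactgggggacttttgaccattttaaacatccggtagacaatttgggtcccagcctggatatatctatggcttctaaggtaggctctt
C8b: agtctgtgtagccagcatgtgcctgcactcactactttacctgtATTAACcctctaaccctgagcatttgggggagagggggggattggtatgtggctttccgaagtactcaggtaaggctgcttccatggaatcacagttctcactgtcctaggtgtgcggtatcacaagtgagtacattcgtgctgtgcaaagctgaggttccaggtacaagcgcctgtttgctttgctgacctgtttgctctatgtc

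The capitals mark letters that resemble a C/EBP site in C3 (TTGCGAAA, 45 to 38 bases before the RefSeq transcript start) and in C9 (TTGCATAA, 132 to 125 bases before it). In Hc, C8a and C8b they mark one arm of the paired site of HNF1, a liver transcription factor, as ATTAAC 74 to 69 bases, GTTAAT 107 to 102 bases and ATTAAC 206 to 201 bases before the start. Hc also holds TATAAA 239 to 234 bases before its start. Of 24 members with a promoter in the RefSeq table, 7 (29.2%) held GTTAAT or ATTAAC within 250 bases before the start, against 6.52% of 27025 promoters. The 7 were C4bp, Hc, C8b, C8a, C1ra, C7 and Cfp. Of these, C7 was too low to test in bulk and Cfp was not called between E18.5 and E10.5. The C/EBP letters TTGCNNAA or TTNNGCAA were in 2 (8.33%) against 9.55%, and TATAAA on the gene's strand in 2 (8.33%) against 8.12%. TGTTTAC of FOXA and CAAAGTCC of HNF4, each sought on both strands, were in 0 members and in 3.09% and 1.22% of all promoters. These are matches of letters, not sites of binding.

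In bulk DLK+ cells all soluble inhibitors, every terminal pathway gene that could be tested and most lectin pathway genes were higher at E18.5 than at E10.5, the C1q genes were not called, and C6, C7 and Cfd stayed at 0.337 CPM or below in every library of either stage. Of 28 members tested between E18.5 and E10.5, 19 rose and 2 fell, and 7 were not called. Of all 15275 genes tested, 32.6% were called higher and 32.5% lower. The median log2 fold change was 3.55 over the members tested and -0.02 over all genes tested.

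**Figure D1:**
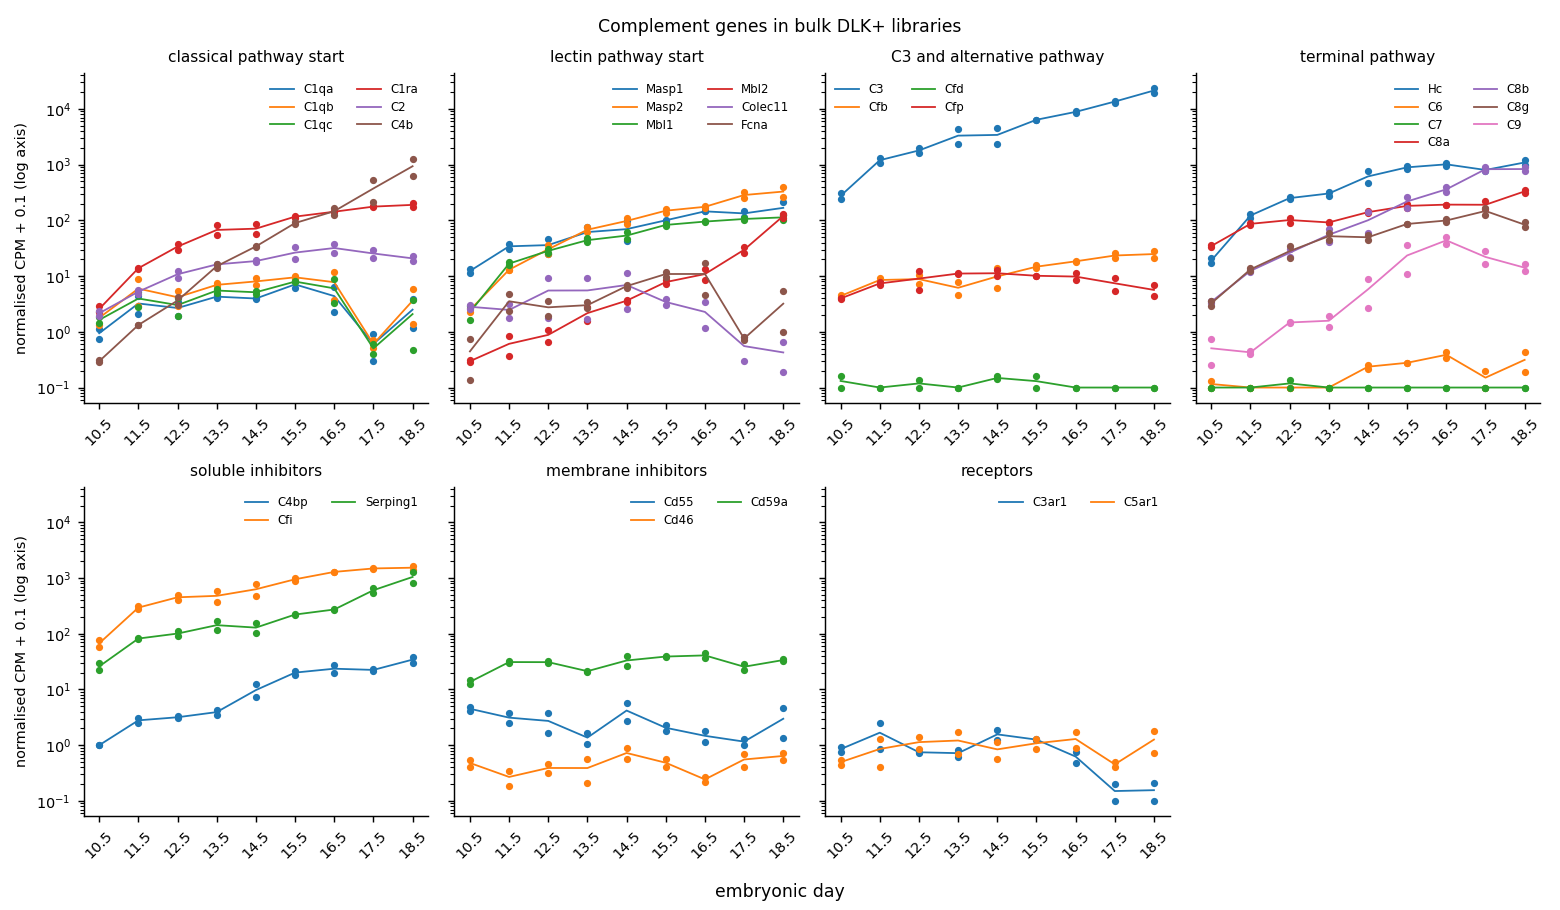
Level of each of the 31 complement genes in bulk DLK+ libraries, as normalised CPM + 0.1 on a log axis, against embryonic day. Points are single libraries, lines join stage means, panels group genes by role, and points at 0.1 have 0 reads. C3 sits above the other members on every day and reaches 23535.8 and 19255.2 CPM at E18.5, while C1q genes and Fcna dip at E17.5.

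C3, the protein on which all pathways converge, had the largest level of any member on every bulk day, also per kilobase. Its libraries held 23535.8 and 19255.2 CPM at E18.5, against 305.9 and 245.5 CPM at E10.5 (log2 fold change 6.28 ± 0.39, edgeR adjusted p = 4.2e-09). C3 (ENSMUSG00000024164) lies on chromosome 17 from 57203970 to 57228136 in GRCm38. Per kilobase of gene length, its level at E18.5 was 4165.8 CPM, against 739.6 for Cfi, 591.3 for Serping1 and 372.3 for C8b, the next in order. At E10.5 the order per kilobase was C3 (53.7), Cfi (32.5), Serping1 (14.6) and C8a (9.54). Of the alternative pathway, Cfb, the protease subunit that pairs with C3b, rose as well, with a mean of 24.8 CPM at E18.5 and 4.3 CPM at E10.5 (2.52 ± 0.35, adjusted p = 1.6e-05). Cfp, the stabiliser properdin, averaged 5.55 and 3.87 CPM on these days and was not called. Cfd, the protease that activates factor B, had at most 0.0625 CPM in any bulk library and was not tested.

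Among the classical pathway genes, C1ra, C2 and C4b rose and the 3 C1q chains did not pass the test. C4b, the target of both starting pathways, held 1258.8 and 613.4 CPM at E18.5, against 0.187 and 0.207 CPM at E10.5 (12.17 ± 0.61, adjusted p = 6.7e-10). Its libraries also lay apart at E17.5, at 533.8 and 213.2 CPM, so its late values were less precise than those of most members. C1ra, a protease of the C1 complex, held 208.9 and 170.3 CPM at E18.5, against 2.19 and 2.76 CPM at E10.5 (6.26 ± 0.28, adjusted p = 3.3e-10). C2, the protease subunit that joins C4b, averaged 20.7 CPM at E18.5 and 2.06 CPM at E10.5 (3.33 ± 0.29, adjusted p = 1.4e-07). Its mean was highest at E16.5, with 37.6 and 26 CPM.

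All 6 lectin pathway genes were called, 5 higher and 1 lower. Masp2, the protease that cuts C4, held 396.1 and 261.2 CPM at E18.5, against 2.59 and 2.14 CPM at E10.5 (7.11 ± 0.30, adjusted p = 2e-10). Mbl2, a mannose-binding lectin, held 127.9 and 111.3 CPM at E18.5, against 0.187 and 0.207 CPM at E10.5 (9.2 ± 0.44, adjusted p = 5.2e-10). Per kilobase, the level of its relative Mbl1 was 102.9, 114.6 and 122.6 CPM at E16.5, E17.5 and E18.5, and that of Mbl2 9.77, 26.8 and 108.6 CPM. Mbl1 averaged 113.2 CPM at E18.5 and 2.15 CPM at E10.5 (5.71 ± 0.26), and Masp1, a protease that activates Masp2, 167.7 and 12.2 CPM (3.78 ± 0.40). The ficolin Fcna, known in mouse from macrophages, averaged 3.1 ± 3.1 CPM at E18.5 and 0.345 ± 0.44 CPM at E10.5 (SD, n = 2 each; 3.07 ± 0.92, adjusted p = 0.009). Summed CPM of 12 macrophage markers was 127.7 and 116.1 at E18.5 and 15.7 and 9.84 at E10.5, and its part in the rise of Fcna was not tested. The collectin Colec11 fell, with 0.0906 and 0.562 CPM at E18.5 against 2.91 and 2.52 CPM at E10.5 (-3.12 ± 1.24, adjusted p = 0.039). Of 10 stellate and mesenchymal markers, 9 fell and 0 rose in the same comparison, with a median of -4.36 and summed CPM of 9.15 and 108.2 at E18.5 and 793.5 and 1020.1 at E10.5, and their part in the fall of Colec11 was not tested.

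Of the terminal pathway, 5 of 7 genes rose and C6 and C7 were too low to test. Hc (ENSMUSG00000026874, chromosome 2 from 34983331 to 35061438) held 1218.3 and 969.0 CPM at E18.5, against 20.8 and 17.1 CPM at E10.5 (5.85 ± 0.27, adjusted p = 3.3e-10). C8b, which encodes the beta chain of C8, held 893.9 and 773.5 CPM at E18.5, against 3.5 and 3.21 CPM at E10.5 (7.95 ± 0.46, adjusted p = 2e-09). C8a, for the alpha chain, averaged 331.4 CPM at E18.5 and already stood at 35.9 and 33.1 CPM at E10.5 (3.26 ± 0.18). C8g, for the gamma chain, averaged 83.5 CPM at E18.5 and 3.15 CPM at E10.5 (4.73 ± 0.28). C9 (ENSMUSG00000022149, chromosome 15 from 6445327 to 6498751), which forms the wall of the pore, averaged 14 CPM at E18.5 and 0.406 CPM at E10.5 (5.11 ± 0.72), and its level was higher on days between, with 49.2 and 38.2 CPM at E16.5. The highest C6 value of any bulk library was 0.337 CPM and that of C7 0.0371 CPM, so the genes for the proteins that link C5 to C8 were close to the detection limit.

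The 3 soluble inhibitors rose. Cfi, the protease that inactivates C3b and C4b, averaged 1533.1 CPM at E18.5 and 67.3 CPM at E10.5 (4.51 ± 0.28), Serping1, the C1 inhibitor, 1045.3 and 25.8 CPM (5.34 ± 0.30), and C4bp, a cofactor of Cfi, 34.2 and 0.902 CPM (5.24 ± 0.30). Of the membrane inhibitors, only Cd59a, which blocks the pore, was called, with 33.7 ± 1.33 CPM at E18.5 and 13.6 ± 1.64 CPM at E10.5 (SD, n = 2 each; 1.31 ± 0.19, adjusted p = 2.5e-05). Its direction rests on the scaling, since with library totals alone its log2 fold change was -0.12 while the median of all genes was -1.45. Cd55, which breaks up the C3-cleaving enzymes, averaged 2.88 and 4.41 CPM at E18.5 and E10.5, and Cd46, a cofactor of Cfi, 0.542 and 0.381 CPM. Of the receptors for the fragments C3a and C5a, C3ar1 fell, with 0.0562 CPM at E18.5 and 0.75 CPM at E10.5 (-3.72 ± 1.05, adjusted p = 0.0059), and C5ar1, with 1.16 and 0.396 CPM, was not called.

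Complement genes outside the 31 and acute phase genes, 2 lists given for comparison, were mostly higher too. Of 24 further complement genes tested, 20 rose and 3 fell between E18.5 and E10.5, with a median log2 fold change of 3.88. Apcs, Crp, C1s1, C1rl and Cpn2 rose by 8.78, 8.95, 4.14, 4.11 and 5.28 on the log2 scale, while Colec10, C1qbp and Susd4 fell. Of 19 acute phase genes tested, 18 rose and 0 fell, with a median of 5.52. Among them Serpina3n rose by 12.75, Cp by 12.2, Itih4 by 10.02 and Saa4 by 4.44. The genes that rose also include Itgam, Itgb2, Fcnb and C5ar2 of the first list and Lcn2 of the second. In the same comparison 6 of 6 granulocyte markers rose, with a median of 9.36, and so did 6 of 6 erythroid, 7 of 8 endothelial and 6 of 11 macrophage markers. Of 10 stellate and mesenchymal markers, 9 fell. The part of these cells in the counts of both lists was not tested.

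The number of members called differed from step to step. Between E11.5 and E10.5, 16 members were called higher, with 9.55% of all genes called higher. They were C1ra, C2, C4b, Masp1, Masp2, Mbl1, Fcna, C3, Hc, C8a, C8b, C8g, C4bp, Cfi, Serping1 and Cd59a, and their log2 fold changes ran from 1.19 for Cd59a to 3.25 for Fcna. C3 averaged 1200.8 CPM at E11.5 and 275.7 CPM at E10.5 (2.12 ± 0.33, adjusted p = 0.00059), and Hc 122.1 and 19 CPM (2.68 ± 0.23, adjusted p = 7.7e-06). Between E12.5 and E11.5 C1ra (1.29 ± 0.23) and Masp2 (1.23 ± 0.24) were called, with 0.426% of all genes called higher. This count rested on single libraries, since it was 0 without either E11.5 library or the second E12.5 library, and 5 without the first E12.5 library.

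Between E13.5 and E12.5 the 7 members called higher were C1ra, C4b, Masp2, Mbl1, Mbl2, C8b and C8g, with 5.07% of all genes called higher. Their log2 fold changes ran from 0.64 for Mbl1, whose adjusted p rounded to 0.05, to 2.09 for C4b. The count was 0 without the first E12.5 library, 4 without the second, and 1 without the second E13.5 library. Between E14.5 and E13.5 the 7 were C4b, Hc, C8a, C9, C4bp, Cd55 and Cd59a, with 15.4% of all genes called higher. Hc averaged 614.7 ± 217.7 CPM at E14.5 and 303.4 ± 35.6 CPM at E13.5 (SD, n = 2 each; 1.02 ± 0.22, adjusted p = 0.0046). This count was 2 without either E13.5 library or the second E14.5 library. With offsets for GC content, 2 members were called between E13.5 and E12.5 and 1 between E14.5 and E13.5.

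Between E15.5 and E14.5 no member was called, nor between E16.5 and E15.5. For the first step 0.216% of all genes were called, 1929 had an unadjusted p below 0.05, DESeq2 called 7 members, 9 were called without the filter on low counts, and without the second E14.5 library 8 were called. The smallest p-values of members belonged to C4bp (1.06 ± 0.25, adjusted p = 0.094), C4b (1.4 ± 0.36, adjusted p = 0.13) and C9 (2.06 ± 0.56, adjusted p = 0.14). For the second step 0% of all genes were called, 851 had an unadjusted p below 0.05, DESeq2 called 0 members and 7 genes in all, and 3 members were called without the filter on low counts. The smallest p-values belonged to C8b (0.72 ± 0.33), C4b (0.71 ± 0.35) and Cfi (1293.6 and 1282.3 CPM at E16.5, 896.9 and 1003.5 CPM at E15.5), each with an adjusted p of 0.86.

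Between E17.5 and E16.5 members moved in both directions. C4b (1.35 ± 0.36), Mbl2 (1.46 ± 0.29), C8b (1.2 ± 0.34) and Serping1 (1.15 ± 0.25) rose, with 5.89% of all genes called higher. C1qa (-3.06 ± 0.75), C1qb (-3.91 ± 0.86), C1qc (-3.85 ± 0.85), Fcna (-4.03 ± 0.94) and Cd59a (-0.68 ± 0.19) fell, with 7.21% called lower. C1qb held 0.606 and 0.404 CPM at E17.5, against 3.65 and 11.7 CPM at E16.5, and Fcna 0.708 and 0.606 CPM against 4.54 and 17.1 CPM. The 3 C1q genes lie together on chromosome 4, where C1qa and C1qc are 2851 bases apart and C1qb and C1qc 3616. Summed CPM of 12 macrophage markers was 85.1 and 83.7 at E17.5 and 128.2 and 142.6 at E16.5. Of the 11 markers tested, Adgre1, Cd5l, Marco, Cd68 and Timd4 fell and Csf1r rose, with a median of -2.23, and their part in the fall of the C1q genes and Fcna was not tested. The count of 9 was 1 without the second E16.5 library, 2 without the first E17.5 library and 4 without the second.

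Between E18.5 and E17.5 C4b (1.33 ± 0.36), Mbl2 (2.02 ± 0.29) and C8a (0.8 ± 0.17) rose, with 3.08% of all genes called higher, and C8g fell (-0.82 ± 0.23), with 4.44% called lower. Mbl2 averaged 119.6 CPM at E18.5 and 29.5 CPM at E17.5, and C8g 83.5 and 147.2 CPM. Of the 3 chains of C8, C8a thus rose, C8g fell, and C8b, at 833.7 CPM at E18.5 and 828.8 CPM at E17.5, was not called. Without the second E17.5 library 1 of these 4 genes was called. Of the further complement genes, 15 rose and 1 fell between E11.5 and E10.5, and 7 rose and 1 fell between E14.5 and E13.5. Between E17.5 and E16.5, 8 acute phase genes rose and 0 fell.

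**Figure D2:**
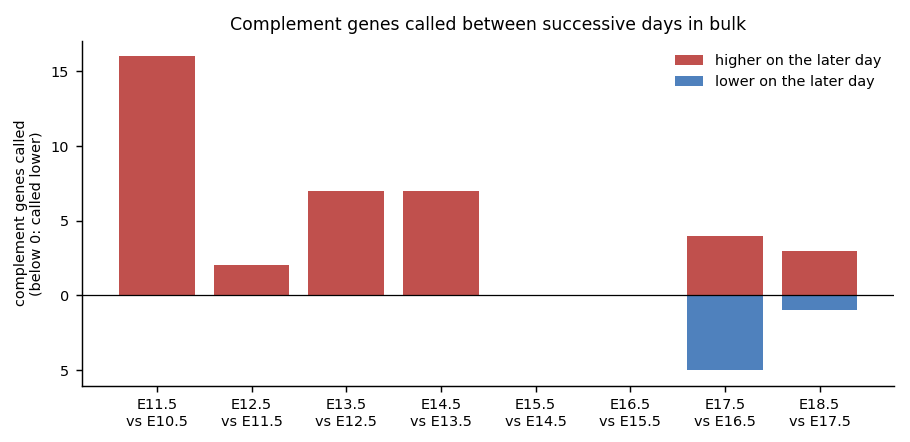
Number of complement genes called between successive bulk days, with bars above 0 for genes higher on the later day and bars below 0 for genes lower on it. The first step has 16 higher, the steps to E15.5 and E16.5 have none, and the step to E17.5 is the one with most lower calls, at 5.

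The C1q genes, Fcna, Colec11, Cd55, the receptors and Cfp stood far lower in picked DLK+ cells than in bulk. Over the 7 days measured both ways, mean CPM in picked DLK+ cells and in bulk were 0.00316 and 3.15 for C1qa, 0.0602 and 5.19 for C1qb, 0.0549 and 3.86 for C1qc, and 0.213 and 3.9 for Fcna. Colec11 had 0.0043 and 3.79 CPM, Cd55 0.0309 and 2.63, C3ar1 0.0104 and 0.897, C5ar1 0 and 0.769, and Cfp 1.03 and 8.52. Other members differed in both directions. Hc stood at 239.1 and 429.5 CPM, C3 at 1541.5 and 4276.4 CPM and C4b at 20.8 and 73.8 CPM, each lower in picked cells. Higher in picked cells were Cfi, at 869.0 and 622.6 CPM, and Cfb, at 32.2 and 10.7 CPM. Protocols differed between bulk and picked cells, so these ratios are descriptions. Of 12 macrophage markers, 4 to 12 had 0 reads in each sum of picked DLK+ cells, whereas at most 4 had 0 reads in any bulk library. Colec11 in bulk was uneven between libraries of a stage, with 9.12 and 1.69 CPM at E12.5, 9.23 and 1.62 at E13.5 and 11.2 and 2.44 at E14.5. The summed CPM of 10 stellate and mesenchymal markers in the same libraries was 707.7 and 186.4, 947.2 and 439.8, and 850.4 and 173.7, and their part in Colec11 was not tested.

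Across all 447 embryo cells, C5ar1 was read in 0 cells, which allows a share of cells with a read of up to 0.671%. Colec11 and C7 were read in 1 cell each, Cd55 in 3, Cfd in 4, and C6 and C1qa in 5 each. By contrast C3 was read in 446 of these cells. Intervals and limits of this kind cover counting error only.

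Picked DLK+ cells of the later stage were also higher in genes of each pathway. Of 26 members tested between E17.5 (4 sums) and E10.5 (3 sums), 18 rose and 0 fell, with 14.2% of all 16838 genes called higher. The median log2 fold change was 3.96 over members and -0.13 over all genes. C3 averaged 5357.2 ± 763.4 CPM at E17.5 and 121.9 ± 31.6 CPM at E10.5 (SD, n = 4 and 3; 5.46 ± 0.33, edgeR adjusted p = 4.5e-14), without overlap of the sums.

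Of the classical pathway, C1ra (5.4 ± 0.50), C2 (3.57 ± 0.42) and C4b (8.84 ± 1.32) rose, and of the lectin pathway Masp1 (3.88 ± 0.33), Masp2 (5.57 ± 0.47), Mbl1 (4.87 ± 0.44) and Mbl2 (6.84 ± 1.43). C4b averaged 116.8 CPM at E17.5 and 0.229 CPM at E10.5. Cfb (3.23 ± 0.29), with 76.8 CPM at E17.5 and 8.16 CPM at E10.5, rose like C3. In the terminal pathway C8b rose, with 1269.4, 1205.9, 1235.1 and 1174.0 CPM at E17.5 against 4.27, 5.53 and 3.25 CPM at E10.5 (8.12 ± 0.49, adjusted p = 5.2e-14). The 4 later sums lay within a narrow band, far from the earlier ones. Hc (5.46 ± 0.46), C8a (2.32 ± 0.26) and C8g (4.8 ± 0.42) rose too. C9 averaged 25 ± 26.6 CPM at E17.5 and had 0 reads in all 3 sums at E10.5, at least 199.5-fold higher when 3 reads are allowed per sum. Its later sums were spread from 6.48 to 64 CPM.

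The inhibitors C4bp (4.05 ± 0.90), Cfi (4.28 ± 0.22) and Serping1 (4.08 ± 0.24) rose. Cd59a was called, with 60.5 CPM at E17.5 and 36.5 CPM at E10.5 (0.72 ± 0.21, adjusted p = 0.0085). As in bulk, this direction flipped with library totals alone, to -0.43, where the median of all genes was -1.27. The C1q genes, Fcna, Cfp, Cd55, Cd46 and C3ar1 were tested and not called, and Colec11, Cfd, C6, C7 and C5ar1 were too low to test. Of the further complement genes 14 rose and 2 fell of 24 tested, with a median of 2.94, among them Apcs, C1s1, Vtn, Clu and Cpn1, which rose by 7.19, 3.27, 3.07, 2.81 and 1.71. Of 18 acute phase genes tested 14 rose and 0 fell, with a median of 4.71, led by Itih4 (9.01), Fga (5.57), Fgg (5.01) and Fgb (4.45).

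Cholangiocytes and DLK+ cells were then compared over E14.5 to E17.5, with 9 and 10 sums. The cholangiocytes came from the EpCAM+ gate, so gate and putative type differ together in this comparison. At E14.5 there were also 26 EpCAM+ hepatoblasts/hepatocytes, which share the gate but not the type. Such cells were few on the later days. They were not set against cholangiocytes, so the part of type within the gate was not tested. Between the gates, hepatoblasts/hepatocytes of E11.5 to E14.5 had no member called, as given below. Over E14.5 to E17.5 together cholangiocytes carried more C9 and less of the starting proteases and lectins, Hc, C8b, C8g and Serping1. C3, Cfi, Cfb and C4bp were not called. Neither was C8a, whose mean was higher in cholangiocytes at E14.5 (169.1 against 96.8 CPM) and lower at E17.5 (64.7 against 154.6 CPM). Of 26 members tested, 1 was called higher in cholangiocytes, with 19% of all genes called higher, and 11 were called lower, with 16% called lower. The median was -0.5 over members and 0.16 over all genes. With library totals alone, which moved the median of all genes to 0.69, 5 members were called higher and 11 lower.

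**Figure D3:**
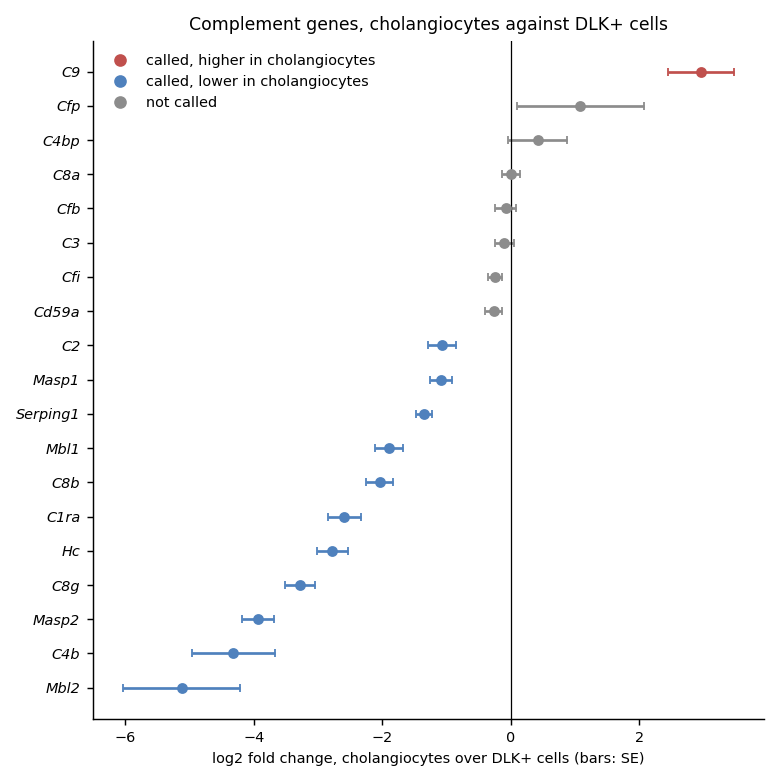
Log2 fold change, cholangiocytes over DLK+ cells at E14.5 to E17.5, of the 19 members with a mean of at least 1 CPM. Bars are standard errors, red and blue mark genes called higher and lower in cholangiocytes, and grey marks genes not called. C9 stands at 2.96, C3, Cfi and C8a lie near 0, and Mbl2 is lowest at -5.12.

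C9 was the member called higher under the main scaling. Its sums ran from 36.7 to 250.3 CPM with a median of 89.4 in cholangiocytes, and from 0 to 64 CPM with a median of 10.9 in DLK+ cells (2.96 ± 0.51, edgeR adjusted p = 2.4e-05). At E14.5 its sums held 89.4, 116.7 and 250.3 CPM in cholangiocytes, against 0 to 11.3 CPM in the 3 sums of DLK+ cells. At E17.5 they held 69.1, 36.7 and 85.8 CPM in cholangiocytes, against 19.6, 64, 9.86 and 6.48 CPM in DLK+ cells. The groups did not overlap at E14.5 and overlapped at E17.5 through 1 DLK+ sum. C9 was read in 74 of 87 cholangiocytes (85.1%, 95% Clopper-Pearson interval 75.8 to 91.8%) and in 41 of 101 DLK+ cells (40.6%, 30.9 to 50.8%).

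C9 was read early in cells annotated as cholangiocytes. Its level was 76.9 CPM at E11.5, 100.2 CPM at E12.5 and 138.0 CPM at E13.5, each from 1 sum, of 2, 3 and 9 cells, and with no test. C9 was read in 2 of 2, 3 of 3 and 8 of 10 of these cells. DLK+ cells of an earlier day, E10.5, gave 0 of 54, so day and type differ together between these shares. EpCAM+ hepatoblasts/hepatocytes had C9 at 3.39, 6.91, 12.9 and 19 CPM at E11.5, E12.5, E13.5 and E14.5. The genes on which the submitters' type rests are not given in the sources used here.

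The members called lower included 7 genes of the starting steps. Masp2 ran from 4.03 to 31 CPM with a median of 8.94 in cholangiocytes, and from 67.6 to 343.2 CPM with a median of 171.4 in DLK+ cells (-3.93 ± 0.25, edgeR adjusted p = 7.3e-14), and its sums did not overlap. C1ra averaged 15.7 and 97.6 CPM (-2.59 ± 0.26), C2 19.1 and 41.0 (-1.07 ± 0.22), and Masp1 76.2 and 170.1 (-1.09 ± 0.17). C4b averaged 2.58 CPM in cholangiocytes and 54.1 CPM in DLK+ cells (-4.32 ± 0.65), Mbl1 42.8 and 160.4 (-1.9 ± 0.22), and Mbl2 2.31 and 28.9 (-5.12 ± 0.91). C4b was read in 17.2% of cholangiocytes and 78.2% of DLK+ cells, Mbl2 in 12.6 and 60.4%, and Masp2 in 39.1 and 100%.

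The terminal genes split. Hc averaged 67.1 ± 41.8 CPM in cholangiocytes and 427.7 ± 131.8 CPM in DLK+ cells (SD, n = 9 and 10; -2.78 ± 0.24, adjusted p = 3.1e-11), C8b 106.4 and 649.1 (-2.04 ± 0.21), and C8g 27.8 and 243.0 (-3.28 ± 0.23). C8a, the partner of both chains in the C8 protein, averaged 131.7 ± 60.9 CPM in cholangiocytes and 126.4 ± 37.1 CPM in DLK+ cells and was not called. Of the inhibitors, Serping1 was lower, with 164.5 CPM in cholangiocytes and 543.7 CPM in DLK+ cells (-1.35 ± 0.12, adjusted p = 1.9e-10), whereas Cfi, with 1130.0 and 1424.4 CPM, and C4bp, with 40.6 and 33.3 CPM, were not called. C3 averaged 2338.8 CPM in cholangiocytes and 3111.7 CPM in DLK+ cells, Cfb 45.1 and 53.2, Cd59a 76.0 and 91.6, and Cfp 1.1 and 0.63, none of them called. The C1q genes, Fcna, Cd55, Cd46 and C3ar1 were also not called, and Colec11, Cfd, C6, C7 and C5ar1 were not tested.

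Per kilobase of gene length at E17.5, C3 (657.0 CPM) and Cfi (564.9 CPM) led the members in cholangiocytes, followed by Serping1 (95.1), Cd59a (47.0), C8b (43.7) and Mbl1 (40.6). In DLK+ cells of that day the order was C3 (1043.1), Cfi (886.5), C8b (545.4), Serping1 (531.3), C8g (287.4) and Mbl1 (216.6). Single cholangiocytes differed widely from each other, with C3 between 2.75 and 10839.3 CPM of a cell's own total at E17.5 and a median of 4719.3. Over the 87 cholangiocytes of E14.5 to E17.5 the log level of Alb, the albumin gene of hepatocytes, had a Pearson correlation of 0.81 with C3, 0.77 with C8b, 0.72 with C9 and 0.65 with Hc. The lowest with Alb among the members examined was 0.45, with Masp2. For Epcam the correlations of the same members ran from -0.61 with C8g to -0.23 with C3, and C9 had -0.5. These are descriptions across cells that share sets, days and depth.

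Of 24 further complement genes tested, 2 were higher and 12 lower in cholangiocytes, with a median of -0.9. Clu, for clusterin, an inhibitor of the pore, averaged 1952.9 CPM in cholangiocytes and 340.2 CPM in DLK+ cells (2.48 ± 0.20), and Vtn, for vitronectin, was the other higher gene. Cpn1 (-1.24), C1rl (-2.42), C1s1 (-1.5) and C1qbp (-0.81) were among the lower ones. Of 18 acute phase genes tested, 1 (Cp) was higher and 13 lower, with a median of -2.32, among them Fga (-2.63), Fgg (-2.6), Fgb (-2.38) and Saa4 (-4.51). Summed CPM of 9 hepatocyte markers at E17.5 was 39036.1 to 65698.4 in cholangiocytes and 397602.2 to 436594.0 in DLK+ cells.

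The gap between the cell types changed with stage for 7 members. The difference at E17.5 was tested against the difference at E14.5 in the same fit, a test chosen after the values had been seen. Masp2 (-3.17 ± 0.57, adjusted p = 0.00096), Hc (-2.08 ± 0.54, 0.025), C8a (-2.06 ± 0.36, 0.00074), C8b (-2.77 ± 0.51, 0.0013), C8g (-3.54 ± 0.53, 8.9e-05) and Serping1 (-1.79 ± 0.30, 0.00038) were called lower, with 2.11% of all genes called lower. Cd59a (1.08 ± 0.30, 0.043) was called higher, with 1.1% called higher. C8a held 72.4, 54.9 and 66.7 CPM in cholangiocytes at E17.5, against 144.7, 158.7, 198.9 and 116.3 CPM in DLK+ cells. At E14.5 it held 168.4, 162.9 and 175.8 CPM in cholangiocytes, against 71.4, 113.4 and 105.7 CPM in DLK+ cells. The groups did not overlap on either day, and their order was opposite.

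C8b held 89.7, 107.5 and 96.5 CPM in cholangiocytes at E17.5, against 1174.0 to 1269.4 CPM in DLK+ cells, and 100.3, 96.8 and 147.8 CPM against 121.7, 267.0 and 245.5 CPM at E14.5. Within cholangiocytes C8b was not called between the days (-0.23 ± 0.36, adjusted p = 0.84), and neither was Serping1 (0.06 ± 0.21, adjusted p = 0.99). Serping1 averaged 168.2 and 939.4 CPM at E17.5 and 161.6 and 260.1 CPM at E14.5 in cholangiocytes and DLK+ cells. The calls of Hc and Cd59a were lost under some settings, with an adjusted p of 0.082 for Hc under library totals and of 0.057 for Cd59a under RLE normalisation, and when some single sums were left out. Under spike-in scaling 3 of the 7 were called. The C9 gap (-3.07 ± 1.20) was not called, with an adjusted p of 0.19.

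**Figure D4:**
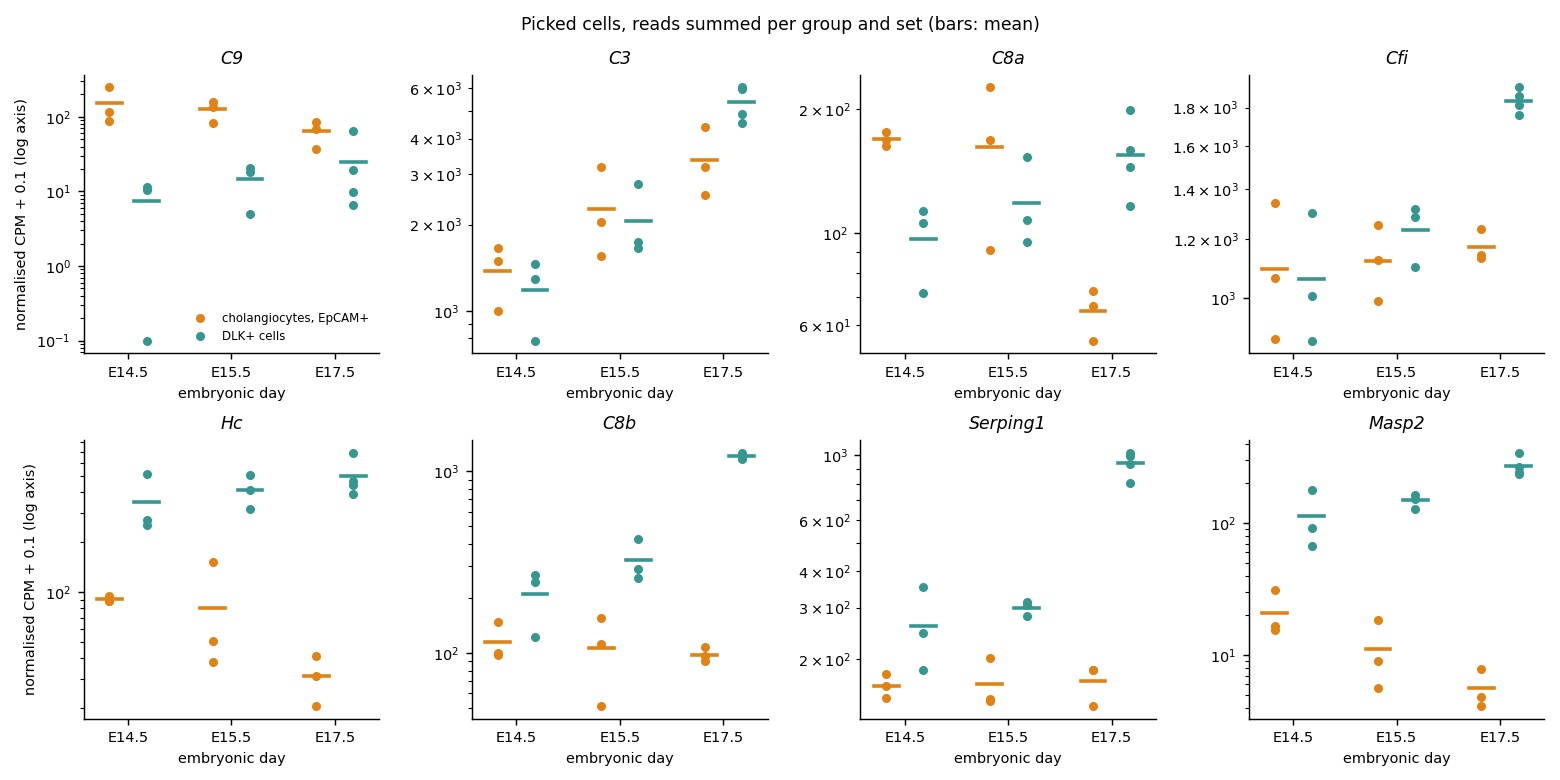
Levels of 8 members in EpCAM+ cholangiocytes (orange) and DLK+ cells (green) at E14.5, E15.5 and E17.5, as normalised CPM + 0.1 on log axes that differ between panels. Points are sums of reads per group and set and bars are means. C9 is higher in cholangiocytes at each mean, C8a changes order between E14.5 and E17.5, and at E17.5 C8b and Serping1 lie at 107.5 and 183.5 CPM or below in cholangiocytes while DLK+ cells reach 1269.4 and 1023.0 CPM.

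Within cholangiocytes, E17.5 was compared with E14.5 (3 sums each). C3 rose, with 3185.2, 2539.6 and 4397.8 CPM at E17.5 against 1486.8, 1655.7 and 994.8 CPM at E14.5 (1.29 ± 0.28, adjusted p = 0.0058). C4b rose, with 12.6, 0.71 and 6.08 CPM against 0, 0.927 and 0 CPM (adjusted p = 0.036), the groups overlapping. Mbl2 rose, with 4.21, 3.79 and 1.61 CPM at E17.5 against 0 reads in all 3 sums at E14.5, at least 7.98-fold higher when 3 reads are allowed per sum. These were 3 of 26 members tested, with 1.16% of all genes called higher. C8a (-1.38 ± 0.27, adjusted p = 0.002), C8g (-2.35 ± 0.40, 0.0004), Hc (-1.56 ± 0.40, 0.024) and Masp2 (-1.9 ± 0.42, 0.0082) fell, with 2.13% called lower. The falls rest on the scaling, since spike-in scaling called 3 members higher and 0 lower, with the median of all genes at 0.59. Leaving out the third E14.5 sum, or the E17.5 sums of set 1 or set 4, left 4 members called. The third E14.5 sum, of set 3, has empty sample descriptions, whereas those of the other sums compared here name a deposited file. The fit held no term for this difference. Of the other lists, 0 further complement genes were called, Cp rose and Saa4 fell.

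Between EpCAM+ and DLK+ hepatoblasts/hepatocytes of E11.5 to E14.5 no member was called. Of 26 tested, 0 were called, with 0.0238% of all genes called and 826 at an unadjusted p below 0.05. DESeq2 called 2 members, no filter on low counts 1, and leaving out the first E12.5 EpCAM+ sum 3. The smallest p-values belonged to C9, with a median over sums of 6.62 CPM in EpCAM+ and 2.15 CPM in DLK+ cells (2.5 ± 0.57, adjusted p = 0.18), C8b, with 143.3 and 89.6 CPM (0.8 ± 0.20, 0.28), and C8a, with 125.0 and 85.7 CPM (0.52 ± 0.15, 0.4).

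Some explant libraries were alike beyond what other cells showed. Among 139656 pairs of the 529 cells, 12 pairs had a correlation over 11759 genes above 0.8, from 0.81 to 0.982, all within explant sets 3 and 4. The highest correlation of a pair not within those sets was 0.795. They involved 8 of 9 TPPB+U0126 cells, 8 of 13 U0126 cells and 3 of 22 Control cells, and 8 TPPB+U0126 cells were in such a pair with a U0126 cell. The highest correlation between a TPPB+U0126 and a U0126 cell was 0.952. The cause was not tested, and whether these cells carry the right treatment label was not settled, so their levels are given by label only. The comparison of TPPB+U0126 with U0126 could not be fitted without those cells.

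Among explant cells annotated as cholangiocytes, 8 complement genes were lower with TPPB than in Control. The Control sums were rich in hepatocyte markers, and 2 of 3 were low in cholangiocyte markers, so a change within cholangiocytes and a difference in the kind of cell cannot be told apart. The fit held a term for round, set to 1 where a sample's description names a deposited file and to 2 where it is empty. By this rule set 3 of the E14.5 embryo cells was of round 2 as well, so round need not be one of culture. All TPPB sums were of round 1. The fold changes therefore rest on 2 TPPB sums and the 2 Control sums of that round, the first and second given for Control. Of 20 members tested, 0 were called higher and 8 lower, with 1.75% of all 13881 genes called lower. The median was -4.12 over members and 0.13 over all genes. C3 held 20.5 and 18.2 CPM with TPPB, against 1778.8, 630.5 and 1378.0 CPM in Control (-5.96 ± 0.69, adjusted p = 0.0033). C3 was read in 11 of 22 TPPB cells, with a median of 0.406 CPM of a cell's own total, and in 22 of 22 Control cells, with a median of 1061.8.

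C1ra held 0.0699 and 0.162 CPM with TPPB, against 44.5, 23.8 and 41.5 CPM in Control (-8.0 ± 0.89, adjusted p = 0.0026). C2 held 6.5 and 2.65 CPM, against 60.1, 56.1 and 62.8 CPM (-3.67 ± 0.69, adjusted p = 0.035). Serping1 held 127.0 and 59.0 CPM, against 788.1, 531.7 and 532.6 CPM (-2.83 ± 0.52, adjusted p = 0.032). No sums of these genes overlapped. Mbl1 and C8b had 0 reads in both TPPB sums, against means of 50.6 and 39.6 CPM over all 3 Control sums. By these means, with no term for round, they were at least 272.0-fold and 213.2-fold lower when 3 reads are allowed per sum. Hc had 1 read with TPPB, against 112.9, 50.2 and 85.6 CPM in Control. C4b had 1 read too, against 261.8, 43.0 and 41.5 CPM, so its Control mean rests largely on the first sum, of 3 cells.

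The other members were not called. Cfi held 237.1 and 114.0 CPM with TPPB, against 1170.1, 388.2 and 664.1 CPM in Control (adjusted p = 0.17). C8a held 4.54 and 0 CPM, against 153.3, 56.5 and 44.8 CPM, and C8g 1.68 and 7.89 CPM, against 103.0, 11.2 and 31.5 CPM. The first Control sum was thus well above the others for both C8 chains. Masp2 held 0.21 and 0 CPM with TPPB, against 2.54, 4.88 and 31.2 CPM in Control, where the third sum stood apart, and Masp1 1.19 and 1.46 CPM, against 21.3, 29.9 and 16.3 CPM. Cfb held 3.49 and 0.594 CPM, against 46.8, 17.7 and 27.0 CPM, and Cd59a 19.7 and 6.97 CPM, against 109.1, 47.2 and 36.8 CPM. C4bp, at 0 and 4.0 CPM against a lowest Control sum of 4.33 CPM, came close to overlap. C9 had 0 reads with TPPB and 22.6, 0 and 1.51 CPM in Control. Cd55 stood at 3.84 and 6.48 CPM with TPPB, had 0 reads in Control, and was not called (adjusted p = 0.3). In 1 TPPB cell, C1qb had 119 reads, C3ar1 397 and C5ar1 61, beside 62 reads of Csf1r and 355 of Mrc1, both macrophage genes. Without that cell 8 members were again called.

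Of 9 hepatocyte markers, 8 were called lower with TPPB and 0 higher, and of 8 cholangiocyte markers 0 were called. Summed CPM of hepatocyte markers was 1830.8 and 384.7 with TPPB, against 199643.4, 76864.7 and 99640.3 in Control. That of cholangiocyte markers was 11859.5 and 12880.5, against 9353.8, 591.5 and 477.7. The first Control sum thus carried both kinds of marker, and their part in the complement levels was not tested. Alb had a median of 6.22 CPM in TPPB cells and 18237.4 in Control cells, and Spp1, a cholangiocyte gene, 10282.7 and 0.881. Of 17 further complement genes tested, 0 were higher and 6 lower, among them C1s1, Vtn, Cpn1, Cpn2 and Apcs, with a median of -3.72. Of 19 acute phase genes, 0 were higher and 8 lower, among them Fga (-11.37) and Fgb (-10.53), with a median of -7.3.

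The count of 8 was 4 without the cells of the closely alike pairs, and 15 with DESeq2. The medians of 6 DLK+ cells of TPPB explants were no lower than those of Control. They were 1731.1 CPM for C3, 280.7 for Hc, 1155.3 for Serping1 and 1599.8 for Cfi, against 1190.6, 191.2, 815.2 and 1173.0 in 6 DLK+ cells of Control explants, with no test.

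With U0126, no member was called against Control. U0126 was used in round 2 only, so with round in the fit its fold changes rest on 1 Control sum, the third. Of 20 members tested 0 were called, with 0% of all genes called, 139 at an unadjusted p below 0.05, and 0 members called by DESeq2. C3 held 829.7 and 1800.2 CPM with U0126, against 1378.0 CPM in that Control sum and 1778.8 and 630.5 CPM in those of round 1. Apart from Cd46, with 0 reads against 0.53 CPM in the third Control sum, the smallest p-values belonged to Masp1, with 51.2 and 23.2 CPM against 16.3 CPM, and C4b, with 29.6 and 122.8 CPM against 41.5 CPM, each with an adjusted p of 1. Over all 3 Control sums Masp1 ran from 16.3 to 29.9 CPM and C4b from 41.5 to 261.8 CPM, and the ranges of both overlapped U0126. The log2 fold change of C4b, 0.88, turned to -0.59 with no term for round.

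With TPPB+U0126, C3 held 3120.5 and 2222.5 CPM, against 829.7 and 1800.2 CPM with U0126 alone (1.02 ± 0.56, adjusted p = 1). C8b held 9.05 and 26.5 CPM against 55.6 and 27.9 CPM, and C4b 138.6 and 215.9 CPM against 29.6 and 122.8 CPM. Of 20 members 0 were called, with 0% of all genes called, 338 at an unadjusted p below 0.05, and 0 members called by DESeq2. Spp1 had a median of 1.18 CPM with TPPB+U0126 and 0 with U0126, and Alb 13734.7 and 16149.6. TPPB+U0126 and TPPB come from different sets and rounds. They can be set against each other only through the Control sums of both rounds, of which round 2 has 1. Their difference was not tested.

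**Figure D5:**
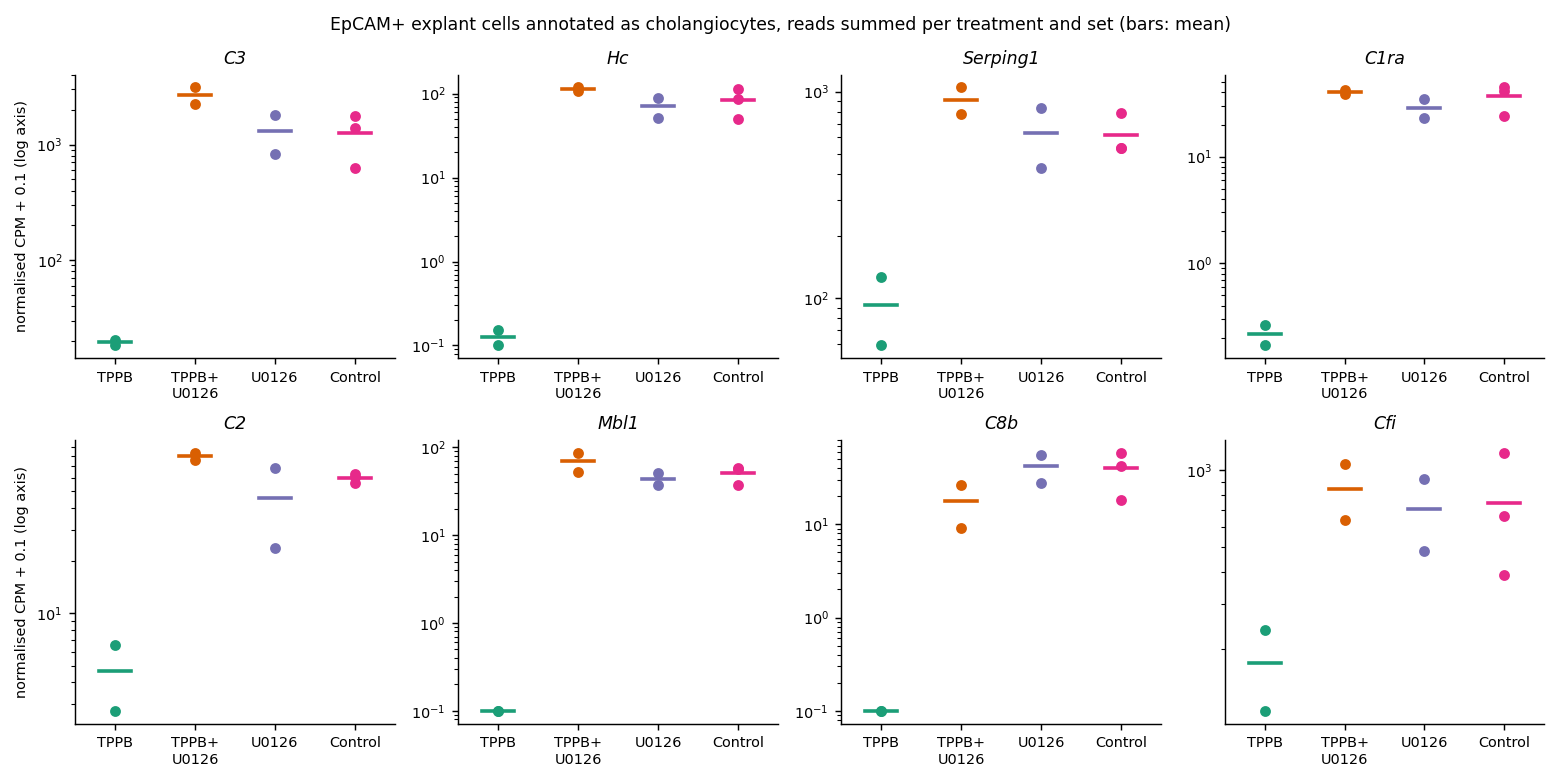
Levels of 8 members in EpCAM+ explant cells annotated as cholangiocytes, by treatment, as normalised CPM + 0.1 on log axes that differ between panels. Points are sums of reads per treatment and set, bars are means, and points at 0.1 have 0 reads. The TPPB sums lie below those of the other treatments in each panel, with C3 at 20.5 and 18.2 CPM.

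Several members share sequence or ground with other genes, and their reads are uncertain to that extent. C4b, C1ra, Cd59a and Cd55 have near copies (C4a, C1rb, Cd59b and Cd55b). C2 and Cfb lie 85 bases apart on chromosome 17 and are both covered by a read-through gene. Masp2, C8g, Masp1, Fcna, Hc, C8a, Cd55, Cd46 and C2 overlap another annotated gene, and whether reads were counted by strand is not given in the sources used here.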

How the data were processed

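The deposited tables hold raw read counts per gene for 18 bulk libraries and 529 single cells, with gene lengths. Per the submitters' processing notes, which name TopHat2 2.1.0, Bowtie2, HTSeq 0.6.0 and GRCm38, the authors aligned reads and made these counts. Per the labels' protocols, bulk RNA was poly(A)-selected and single cells were amplified by Smart-seq2 without molecular identifiers. Counts were taken as deposited, without the 92 spike-ins. Cells of a group and set were summed, with at least 2 cells a sum.

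Tests used edgeR 4.0.16 (R 4.3.3) with TMM normalisation, quasi-likelihood tests, a minimum count of 10 in its filter, and Benjamini-Hochberg adjustment over all genes. Explant fits held the round, as derived from the sample descriptions. Coordinates and overlaps come from GENCODE M21. Alternatives were RLE, library totals, spike-in scaling, no filter, DESeq2 1.42.0, GC offsets, replicate blocks and leaving out each library. On simulated data, the bulk, embryo and explant fits recovered 96, 56 and 50% of genes changed 16-fold. Same-numbered libraries deviated together with correlations of -0.29 to 0.39, and numbers were not treated as pairs in the main tests. Most sums of picked cells deviated most like a sum of their own number, and counts with a replicate block are given below.

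The members and lists were chosen with earlier results of these data known. All members are accounted for in the 3 widest comparisons. Elsewhere the members called are named, or with none called up to 3 with the smallest p. Of the further complement and acute phase lists, up to 6 and up to 4 called genes with the smallest p and at least 10 CPM in the higher group are named. Genes outside this rule, such as Colec10 and Susd4, which complete a count, were named after their values were seen. One gene that this rule would name is not reported here.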

Additional observations from a re-analysis of the deposited data

Results flagged for a closer look

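For 7 complement genes, the difference between cholangiocytes and DLK+ cells at E17.5 differed from that at E14.5 by a test of the difference itself, chosen after the values had been seen. On the log2 scale it was -3.17 for Masp2, -2.08 for Hc, -2.06 for C8a, -2.77 for C8b, -3.54 for C8g and -1.79 for Serping1, each lower at E17.5, and 1.08 for Cd59a, higher at E17.5. In cholangiocytes and DLK+ cells, C8a averaged 64.7 and 154.6 CPM at E17.5 and 169.1 and 96.8 CPM at E14.5, so its order turned round. C8g averaged 9.51 and 330.5 CPM at E17.5 and 48.2 and 144.7 CPM at E14.5. Cd59a averaged 84.8 and 60.5 CPM at E17.5 and 71.7 and 108.0 CPM at E14.5. The gap in summed hepatocyte markers moved like that of the 6 genes called lower and opposite to that of Cd59a. These markers came to 39036.1 to 65698.4 CPM in cholangiocytes and 397602.2 to 436594.0 CPM in DLK+ cells at E17.5. At E14.5 they came to 83998.9 to 102635.1 and 118987.9 to 187090.1 CPM. Their part in the result was not tested. In 18 combinations of gene and group of 4 or more sums, 0 held a sum that stood apart. The only group with that many sums was DLK+ cells of E17.5, so smaller groups were not checked.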

How the results depend on the processing

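Values are numbers of complement genes called. Without the filter on low counts they were 9 between E12.5 and E11.5, 9 between E15.5 and E14.5, 3 between E16.5 and E15.5, 9 between E18.5 and E17.5, 1 between EpCAM+ and DLK+ hepatoblasts and 15 for TPPB. DESeq2 gave 8, 7, 0, 7, 2 and 15. GC offsets gave 4 for E12.5, 2 for E13.5 and 1 for E14.5, each against the day before, and 3 and 1 for E13.5 and E14.5 with the replicate block. Spike-in scaling left 3 within cholangiocytes and 3 for the change of the gap. Without the closely alike explant cells, TPPB gave 4. The cause of these shifts was not tested.

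The replicate numbers were not shown to pair libraries, though 5 of 6 sums of DLK+ cells, 11 of 16 of cholangiocytes and DLK+ cells, and 17 of 18 of EpCAM+ and DLK+ hepatoblasts deviated most like a sum of their own number. With the replicate block the count was 1 between E12.5 and E11.5, against 2, and 10 for TPPB, against 8. In the other comparisons it stayed within 1.5 times the count without the block. The crossed pairing of E16.5 and E15.5, whose correlation was -0.29, gave 0.

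Leaving out 1 library or sum gave 19 to 22 for E18.5 against E10.5, then 11 to 14, 0 to 5, 0 to 7, 2 to 7, 0 to 8, 0, 1 to 7 and 1 to 4 for the successive steps. It gave 18 for DLK+ cells, 12 to 14 for cholangiocytes against DLK+ cells, 4 to 6 within cholangiocytes, 0 to 3 for EpCAM+ against DLK+ hepatoblasts, 6 to 8 for TPPB, 0 for U0126 and for TPPB+U0126, and 5 to 7 for the change of the gap.

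With library totals alone, Cd59a turned to -0.12 in bulk and -0.43 in DLK+ cells. The share of all calls that were higher was then 16.7% against 50.1% in bulk E18.5 against E10.5, 14.9% against 48.3% in DLK+ cells and 82.4% against 54.3% in cholangiocytes. C4b in explant U0126 vs Control (0.88) turned to -0.59 with no term for round, -0.08 with the set number as replicate block, -0.44 with all EpCAM+ cells and -0.85 without the closely alike explant cells, and ran from -1.02 to 1.56 when 1 sum was left out. With at least 10 reads in place of 1, C4b was read in 62.4% of DLK+ cells. Of the other values of single genes under the alternatives that left no library out, 894 kept direction and side of the threshold, 52 lost the call, 11 gained one and 6 changed sign. For TPPB against Control the self-test recovered 4% of genes changed 4-fold, and the parts of depth, of the number of sums and of their spread in this were not separated.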
